A study of Mus musculus with 8 samples.

Results

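The genes of the collagens, the laminins and their basement membrane partners were examined in single cells sorted from the mouse dentate gyrus after traumatic brain injury (TBI). Members were all genes of the count tables with a collagen symbol (Col, a number, a and a number) or a laminin symbol (Lama, Lamb or Lamc and a number), together with Sparc, Sparcl1, Fn1, Nid1, Nid2, Hspg2 and Agrn. The rule gave 62 of 31053 genes, of which 44 were collagens, 11 laminins and 7 others. The mice were 8-week-old males of the Nestin-GFP strain, in which control elements of the Nestin gene drive GFP. They had received either a sham craniotomy (Control) or a unilateral controlled cortical impact (TBI), and the dentate gyri of the operated side were taken 15 days later. The labels list 4 samples per condition, but cells of all animals of a condition were pooled, GFP-positive cells were sorted and 1 library per condition was made with the 10x Genomics 3' kit, so no animal can be told from another. The sort decided which cells entered, so the vascular cells are those that passed a gate for GFP.

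Basement membranes are thin sheets of matrix that surround blood vessels and line the surface of the brain. Type IV collagen chains assemble into trimers that form one network, laminins (trimers of an alpha, a beta and a gamma chain) form another, and nidogens, perlecan (Hspg2) and agrin (Agrn) join the networks to each other and to cells. In brain vessels endothelial cells, mural cells (pericytes and vascular smooth muscle cells) and the endfeet of astrocytes all contribute to this matrix. Fibrillar collagens such as types I and III build the fibres of connective tissue, which in the brain is largely restricted to the meninges and the space around larger vessels. Sparc and Sparcl1 encode related secreted proteins that bind collagen and regulate matrix assembly and, for astrocytes, synapse formation.

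The Control library held 3086 barcodes and 24723113 unique molecular identifiers (UMIs, each standing for 1 captured RNA molecule), the TBI library 5081 barcodes and 31543330 UMIs. After filtering, 3049 Control and 5036 TBI cells were clustered without the 62 genes and named by fixed markers, none of them a member, so every name means cells like that type by these markers. The classes were mural (281 Control and 706 TBI cells), endothelial (260 and 567), astroglial (751 and 710), oligodendrocyte (596 and 1157) and neuronal lineage (987 and 1644), with microglia (38 and 89) outside them and 136 and 163 cells unnamed. Mural cells comprised pericytes (203 and 625), smooth muscle cells (65 and 62) and fibroblasts (13 and 19). All markers of the vascular, astrocyte, oligodendrocyte and progenitor subclasses were detected in at least 10% of their cells, whereas 6 of the 8 Reln neuron markers were. The stem-like astroglia (56 and 31) are a small set whose markers sum to 2685 CPM in Control, below the 3400 CPM that the same markers reached in another Control subclass. The libraries shared 3 barcodes. A level is given in CPM, the UMIs of a gene per 1000000 UMIs without Malat1 summed over the cells of a group, followed where it helps by an exact 95% Poisson interval. With 1 library per condition, intervals cover counting error only and no test between conditions was possible.

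The 6 type IV collagen genes lie in 3 pairs whose members start next to each other and run in opposite directions. Within 2000 bases of their start, 6 of the 62 members had the start of another protein-coding gene on the opposite strand, in each case another type IV collagen, against 12.2% of all 21755 protein-coding genes. In the GENCODE annotation of GRCm38, Col4a1 (chromosome 8, 11198423 to 11312826, minus strand) and Col4a2 (11312805 to 11449287, plus strand) share 22 bases of their first exons. Col4a4 (chromosome 1, 82448423 to 82586849, minus strand) and Col4a3 (82586921 to 82722059, plus strand) start 72 bases apart, and Col4a6 (chromosome X, 141165403 to 141474076, minus strand) and Col4a5 (141475385 to 141689234, plus strand) 1309 bases apart. The correlation of the levels within each pair is given below. Genes outside the list also reached high correlations, such as 0.918 between Itga1 and Col4a1. A part of the neighbouring starts in these correlations was not tested. The sequences at these starts are shown here. They come from RefSeq promoter windows of build GRCm38.p6, are written 5' to 3' on the strand of the gene named first, and have matches of CCAAT and also those of GGGCGG and those of TATAAA, on either strand, in capitals.
Col4a2 with Col4a1, shared bases of the first exons, chr8:11312805-11312826, plus strand: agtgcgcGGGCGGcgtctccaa
Col4a4 with Col4a3, all bases between the starts, chr1:82586850-82586920, minus strand: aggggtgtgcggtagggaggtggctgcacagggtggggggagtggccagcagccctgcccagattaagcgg
Col4a6, bases before the start, chrX:141474077-141474326, minus strand: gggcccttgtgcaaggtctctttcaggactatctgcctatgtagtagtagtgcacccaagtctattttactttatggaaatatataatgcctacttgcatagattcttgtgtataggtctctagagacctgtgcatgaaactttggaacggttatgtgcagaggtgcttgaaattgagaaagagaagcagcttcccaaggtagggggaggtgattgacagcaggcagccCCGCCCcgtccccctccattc
Col4a5, bases before the start, chrX:141475169-141475384, plus strand: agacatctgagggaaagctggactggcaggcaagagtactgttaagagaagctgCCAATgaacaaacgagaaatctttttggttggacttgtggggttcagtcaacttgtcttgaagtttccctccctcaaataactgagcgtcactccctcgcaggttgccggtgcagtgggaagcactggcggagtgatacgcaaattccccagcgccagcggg
Of the whole 300-base windows, GGGCGG (or CCGCCC) occurred 1 time in that of Col4a1, 3 times in Col4a2, 1 time each in Col4a5 and Col4a6 and 0 times in Col4a4, and it is present in 35.7% of all 32851 promoter windows. CCAAT (or ATTGG) occurred 1 time each in Col4a1, Col4a2 and Col4a5 (37.4% of all windows), and TATAAA (or TTTATA) in none of the 5 windows (13.6% of all). The Col4a1 and Col4a2 windows were 74% and 73.7% G and C, above the 52.7% median of all windows, and the Col4a6 window 48.3%. Promoter entries were found for 44 of the 62 members, and Col4a3 is among those without one.

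Among the classes, most enriched members fell to the mural class, which here takes in fibroblasts beside pericytes and smooth muscle cells. At 50 or more UMIs in at least 1 class, 40 members could be placed, and 21 of them were at least 2-fold higher in mural cells than in each of the 4 other classes in both libraries, against 4.41% of all 13345 genes placed. Endothelial cells had 1 such member (Fn1; background 5.1%), astroglia 2 (Col16a1 and Col11a2; 5.69%), oligodendrocytes 0 (5.07%) and neuronal lineage cells 1 (Col11a1; 8.88%). The other 15 were in no class, among them Col4a1, Col4a2, Sparc, Sparcl1 and Agrn, which several classes shared. By single subclass, Col16a1 was highest in fibroblasts and Col11a2 in oligodendrocyte precursor cells in both libraries. In both libraries the 13 Control and 19 TBI fibroblasts held the highest level of 13 of the 21 mural members, and pericytes that of 4 (Col4a3, Col4a4, Lamc1 and Lama4). The same shares over all genes enriched in mural cells were not computed, so these counts do not set the members apart. The members together took up 1.64% and 1.65% of the UMIs of fibroblasts in Control and TBI, 0.873% and 0.853% in pericytes, 0.702% and 0.773% in smooth muscle cells, 0.581% and 0.624% in endothelial cells, 0.433% and 0.475% in astrocytes, and 0.0231% and 0.024% in oligodendrocytes. Without Sparc and Sparcl1 the astrocyte shares were 0.0615% and 0.0546%, so those 2 genes made up most of the astrocyte signal, while pericytes kept 0.469% and 0.471%.

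**Figure D1:**
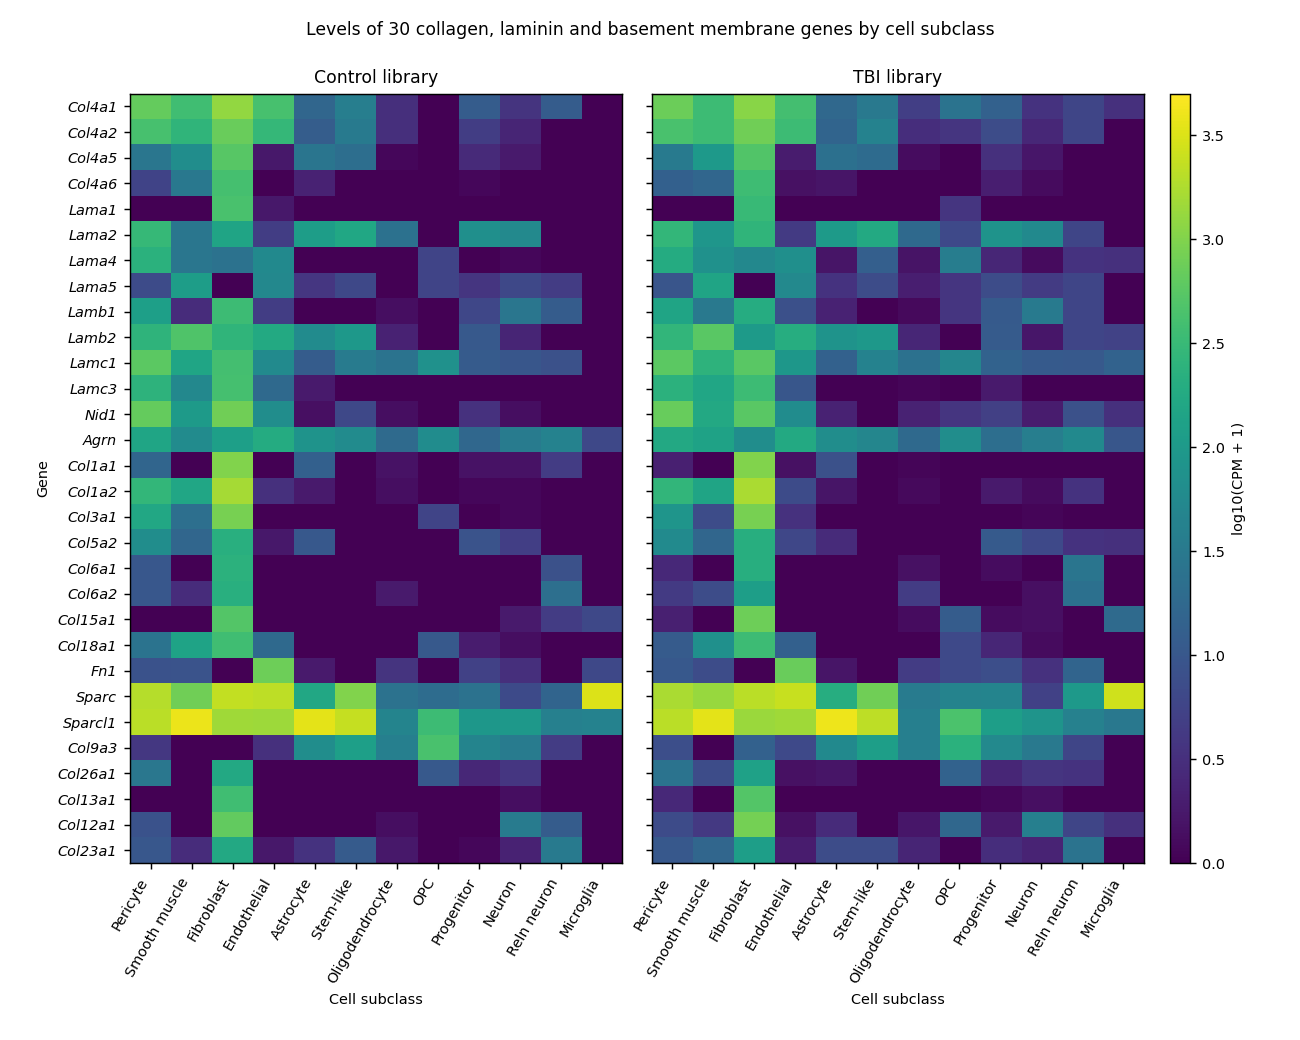
Level of the 30 members with at least 100 CPM in a subclass of both libraries (rows, ordered by type) in the 12 cell subclasses (columns), as log10(CPM + 1), for the Control library (left) and the TBI library (right). The fibroblast column is the brightest for 19 genes in both libraries, Fn1 stands out in endothelial cells alone, and both panels show the same layout. Genes at 100 CPM only in the fibroblasts (13 Control and 19 TBI cells) were shown because of that group. The 19 therefore partly follow from how the genes were chosen.

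Type IV collagens had 3 distributions, 1 for each of the gene pairs shown above. Col4a1 and Col4a2, the chains of the network found in nearly every basement membrane, were high in all 4 vascular subclasses. Col4a1 was at 1253 CPM (936 to 1643) in Control and 1104 CPM (882 to 1365) in TBI in fibroblasts, 658 (597 to 723) and 727 (689 to 768) CPM in pericytes, 361 (311 to 416) and 339 (278 to 408) CPM in smooth muscle cells and 414 (379.7 to 449.5) and 388 (362 to 415) CPM in endothelial cells. The Control intervals of pericytes and endothelial cells did not overlap, and those of smooth muscle and endothelial cells did. Col4a2 had 723 and 792 CPM, 414 and 427 CPM, 264 and 342 CPM and 292 and 338 CPM in the same order of cells and libraries. Across the 24 profiles (12 subclasses in 2 libraries) the pair had a Pearson correlation of 0.966 on the log2(CPM + 1) scale, a description in which profiles of a library share its depth and free RNA. In the 8 named subclasses outside the vessel wall neither exceeded the 31.5 and 43.1 CPM of Col4a2 and the 36.7 and 30.8 CPM of Col4a1 in stem-like astroglia.

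Col4a3 and Col4a4, best known from the filtration barrier of the kidney, were genes of pericytes. Col4a3 was at 51.5 (35.7 to 72) and 75.8 (63.7 to 89.6) CPM there in Control and TBI, and Col4a4 at 66.7 (48.5 to 89.5) and 57 (46.5 to 69.1) CPM. In endothelial cells Col4a3 had 0 and 15 UMIs and Col4a4 0 and 7 UMIs, and fibroblasts had 0 of either in both libraries, where 3 UMIs would be 72.3 CPM in Control and 39 CPM in TBI. The correlation of this pair was 0.792. Col4a5 and Col4a6, chains that meet in the same trimer, peaked in fibroblasts, Col4a5 at 554 (351 to 831) and 494 (349 to 678) CPM and Col4a6 at 409.6 (239 to 656) and 351 (231 to 510.3) CPM, and had a correlation of 0.869. In pericytes they were at 27.3 and 32.7 CPM and 4.55 and 12.7 CPM, in smooth muscle cells at 63.7 and 95.5 CPM and 28.9 and 15.4 CPM. In astrocytes Col4a5 was at 26.1 and 22.2 CPM and Col4a6 at 1.24 and 0.616 CPM. In every type IV gene the Control and TBI intervals overlapped in pericytes, smooth muscle cells and fibroblasts.

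**Figure D2:**
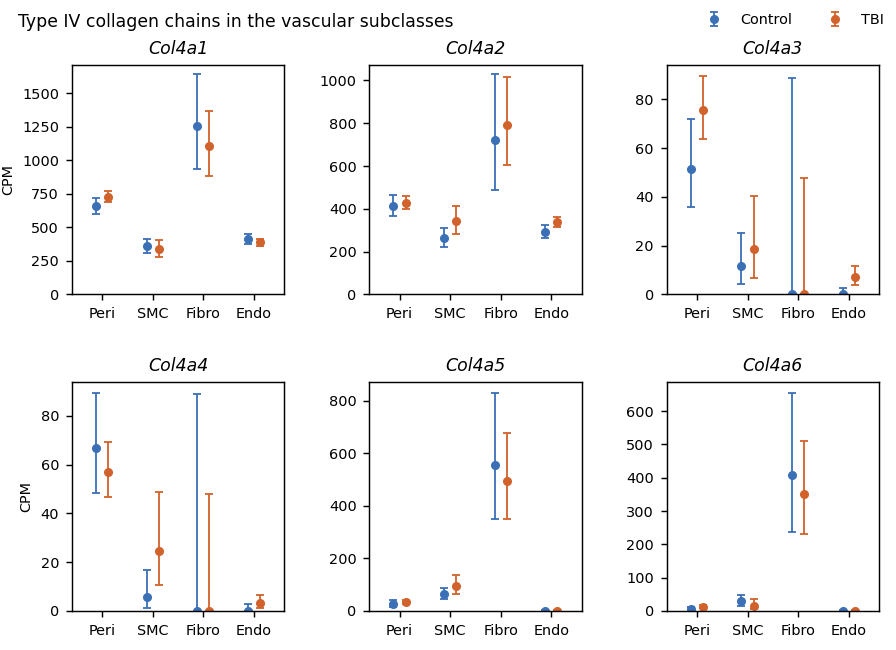
Levels in CPM of the 6 type IV collagen genes in pericytes (Peri), smooth muscle cells (SMC), fibroblasts (Fibro) and endothelial cells (Endo), with points for the Control (blue) and TBI (orange) library and exact 95% Poisson intervals as bars. Col4a1 and Col4a2 appear in all 4 groups, Col4a3 and Col4a4 mainly in pericytes, and Col4a5 and Col4a6 mainly in fibroblasts.

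Laminin chains differed between the vascular subclasses. Among alpha chains, Lama4 was highest in pericytes, Lama2 was shared by pericytes and fibroblasts, Lama5 was shared by smooth muscle and endothelial cells, and Lama1 was seen in fibroblasts. Lama2, the alpha chain whose loss causes a muscular dystrophy, was at 302 (261 to 347) and 281 (257 to 307) CPM in pericytes and at 27 and 86.2 CPM in smooth muscle cells. In fibroblasts it was at 145 (53 to 315) and 259.8 (159 to 401) CPM, overlapping the pericyte intervals. Endothelial cells had only 3.75 and 3.25 CPM. Lama2 was also a gene of the neural lineages, with 113 (99.5 to 127) and 103 (88.4 to 120.3) CPM in astrocytes, 159.9 (122 to 205) and 179 (119.7 to 257) CPM in stem-like astroglia, 68.2 and 78.9 CPM in progenitors and 53.5 and 55.7 CPM in neurons, but 22.9 and 17.6 CPM in oligodendrocytes and 0 and 0 CPM in microglia. Lama4, the alpha chain found in most vessels, was at 230.4 (195 to 270.0) and 189.9 (170.3 to 211) CPM in pericytes and 55.5 (43.6 to 69.7) and 67.8 (57.2 to 79.7) CPM in endothelial cells. Lama5, the other vascular alpha chain, was at 114 (86.7 to 147) and 145 (106 to 193) CPM in smooth muscle cells, at 52.5 (41 to 66.4) and 54.3 (44.9 to 65.1) CPM in endothelial cells and only at 6.06 and 8.3 CPM in pericytes. Lama1, a chain of the pial basement membrane, was at 434 (257 to 685) and 312 (199.8 to 464) CPM in fibroblasts and at 0 and 0 CPM in pericytes. Lama3, an alpha chain of epithelia, had 113 UMIs in the 5 classes together, and in astrocytes it was at 23.2 and 9.24 CPM.

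The beta and gamma chains also differed between the vascular subclasses. Lamb2, which marks mature vessels, was at 475 (417 to 538) and 561 (482 to 648) CPM in smooth muscle cells, above its intervals in pericytes (256 (219 to 298) and 271 (247 to 296) CPM) and endothelial cells (173 (152 to 197) and 198 (179 to 217) CPM). Astrocytes carried 59.6 and 78.2 CPM of it. Lamb1 was at 119.7 (94.8 to 149) and 146 (129 to 165) CPM in pericytes and 337 (184 to 566) and 195 (109 to 321) CPM in fibroblasts, whereas endothelial cells had 3.75 and 6.96 CPM and neurons 27.8 and 30.9 CPM. Lamc1, the gamma chain of most laminins, was at 589.5 (532 to 651) and 577 (542 to 613) CPM in pericytes, 385 (220.3 to 626) and 572 (415 to 767) CPM in fibroblasts, 149 (117 to 186) and 249 (198 to 310.1) CPM in smooth muscle cells and 58.5 (46.3 to 73.1) and 88.7 (76.5 to 102) CPM in endothelial cells. Lamc3, a less common gamma chain, was at 249 (212 to 289.6) and 238 (216 to 262) CPM in pericytes, 409.6 (239 to 656) and 338 (221 to 495) CPM in fibroblasts and 17.3 and 8.82 CPM in endothelial cells. Of Lamb3, a beta chain of epithelia, the 5 classes together held 8 UMIs.

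**Figure D3:**
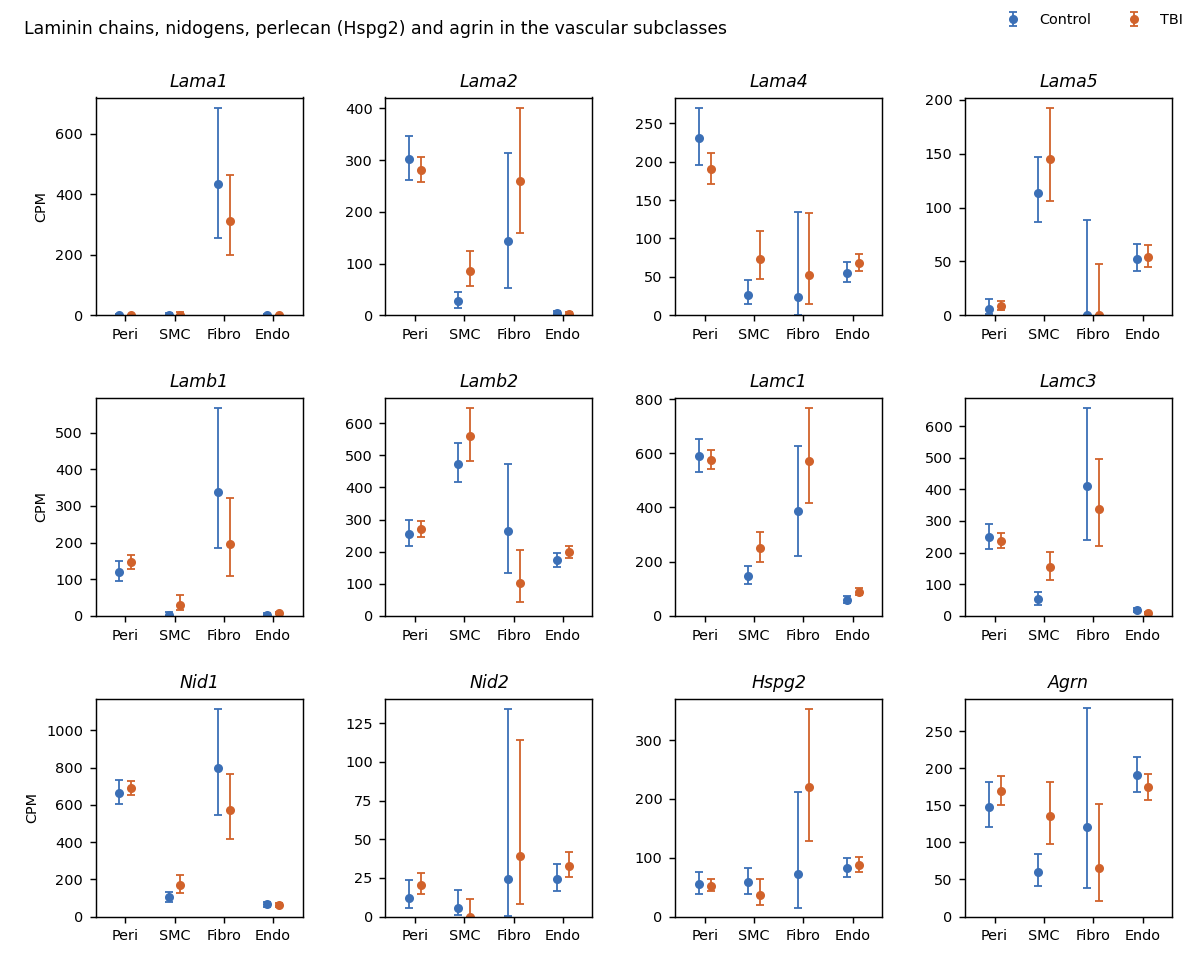
Levels in CPM of 8 laminin chains, both nidogens, perlecan (Hspg2) and agrin in pericytes (Peri), smooth muscle cells (SMC), fibroblasts (Fibro) and endothelial cells (Endo), as points for Control (blue) and TBI (orange) with exact 95% Poisson intervals. Lama4 and Lamc1 are high in pericytes, Lama2 in pericytes and, with wide intervals, in fibroblasts, Lama5 and Lamb2 in smooth muscle cells, and the fibroblast intervals are the widest because that group has 13 and 19 cells.

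The proteins that link the networks were spread differently. Nid1 was at 665 (605 to 731) and 689 (651 to 729) CPM in pericytes, 795 (547 to 1117) and 572 (415 to 767) CPM in fibroblasts, 102 (76.6 to 134) and 169 (128 to 221) CPM in smooth muscle cells and 64.5 (51.6 to 79.7) and 62.2 (52.1 to 73.7) CPM in endothelial cells, and no higher than 7.3 CPM in the 8 other subclasses. Nid2, its paralog, was at 24 and 33 CPM in endothelial cells, 12.1 and 20.5 CPM in pericytes and 17.8 and 15.4 CPM in astrocytes. Hspg2 was at 81.8 (67.2 to 98.7) and 87.7 (75.7 to 101) CPM in endothelial cells, 54.6 (38.2 to 75.5) and 52.6 (42.5 to 64.3) CPM in pericytes and 57.9 (39.1 to 82.6) and 37 (19.1 to 64.6) CPM in smooth muscle cells. In Control these 3 intervals overlapped, and in TBI the endothelial interval lay above both others. In fibroblasts Hspg2 was at 72.3 (14.9 to 211) and 221 (129 to 354) CPM. Agrn, which also organizes the synapse between nerve and muscle, reached beyond the vessels, at 191 (168 to 216) and 175 (157 to 193) CPM in endothelial cells, 149 (121 to 181) and 169 (151 to 189) CPM in pericytes, 79.4 (68.6 to 91.5) and 64.7 (52.9 to 78.3) CPM in astrocytes, 62.6 and 63.1 CPM in oligodendrocyte precursor cells (OPC), 33.1 and 37 CPM in neurons and 18.3 and 17.4 CPM in oligodendrocytes.

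Fibrillar collagens marked the fibroblasts. Col1a1, the main chain of type I collagen, was at 988 (709 to 1340.1) and 1000.3 (789 to 1250.2) CPM there, at 15.2 and 1.11 CPM in pericytes, at 0 CPM in smooth muscle cells of both libraries and at 12.8 and 7.39 CPM in astrocytes. Its partner Col1a2 was at 1590.1 (1229.8 to 2023) and 1676 (1399 to 1991) CPM in fibroblasts but also at 279 (240.0 to 322) and 268 (245 to 293) CPM in pericytes and 156 (124 to 194) and 142 (104 to 189) CPM in smooth muscle cells, so the type I chains did not go together in pericytes. This pair had a correlation of 0.677 over the 24 profiles. Col3a1 was at 867 (607 to 1201) and 870.4 (675 to 1105) CPM in fibroblasts and at 167 (137 to 201) and 85.2 (72.3 to 99.8) CPM in pericytes, and Col5a2, which joins type I fibres, at 217 and 208 CPM and 63.7 and 57.6 CPM. Col3a1 and Col5a2, neighbours on chromosome 1, had a correlation of 0.859. Col27a1 was at 71.2 (52.3 to 94.7) and 109 (94.3 to 125) CPM in pericytes and 62.6 and 65.9 CPM in OPC. Col11a1 was at 64.8 and 82.7 CPM in Reln neurons, 35.7 and 26.9 CPM in neurons and 0 and 90.9 CPM in fibroblasts, and Col11a2 was at 82.3 and 45.6 CPM in astrocytes and 116 and 49.4 CPM in OPC.

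Among the collagens that do not form fibres, several were seen in fibroblasts and hardly elsewhere. Col15a1, a collagen of the outer vascular basement membrane zone, was at 506 (313 to 773) and 753 (572 to 974) CPM in fibroblasts and at 0 and 1.11 CPM in pericytes. Col13a1, a transmembrane collagen, was at 361 (202 to 596) and 507 (360.3 to 693) CPM and 0 and 1.66 CPM. The type VI chains Col6a1 and Col6a2 were at 241 and 208 CPM and 217 and 117 CPM in fibroblasts and had a correlation of 0.941. All type VI chains together were at 28.8 and 51.1 CPM in Reln neurons, against 554 and 429 CPM in fibroblasts. Oligodendrocytes had 5 and 31 UMIs of Col6a2, or 0.881 and 3.57 CPM. Col6a4 was at 0 UMIs, and Col6a3 reached 96.4 and 90.9 CPM in fibroblasts. Col12a1 was at 651 (429 to 946) and 844 (652 to 1076) CPM in fibroblasts and, in contrast with Col15a1, also at 33.6 (29 to 38.7) and 39.2 (34.8 to 43.9) CPM in neurons, with 7.58 and 6.09 CPM in pericytes. Col23a1 and Col26a1 were at 169 and 117 CPM and 169 and 129.9 CPM in fibroblasts. Col18a1, the source of endostatin, was at 361 (202 to 596) and 338 (221 to 495) CPM in fibroblasts and 137 (107 to 173) and 70.8 (44.9 to 106) CPM in smooth muscle cells. Col9a3 had its highest level outside the vessels, with 439 (353 to 538) and 228 (181 to 282) CPM in OPC, 123 (90.5 to 164) and 117 (70.5 to 183) CPM in stem-like astroglia, 63.3 (53.7 to 74.2) and 55.4 (44.6 to 68.1) CPM in astrocytes and 37.9 and 38.9 CPM in oligodendrocytes.

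Fibronectin separated endothelial from mural cells. Fn1 was at 752 (706 to 800.0) and 726 (690.0 to 762) CPM in endothelial cells, at 7.58 and 9.41 CPM in pericytes, at 7.72 and 6.16 CPM in smooth muscle cells and at 0 CPM in the fibroblasts of both libraries. Among the 3 endothelial clusters it was at 967 and 779 CPM, 809 and 815 CPM and 499 and 595 CPM, the last being the cluster led by Gkn3, Edn1, Alpl and Sema3g, of which Gkn3 and Sema3g are known from arteries. The same cluster held the lower Sparc, with 1457 and 2123 CPM against 2466 and 2632 CPM and 2374 and 2611 CPM, and the only Col18a1 of the 3 clusters, 56.2 and 35.6 CPM against 0 CPM in both others.

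Sparc and Sparcl1 divided the cells differently although the proteins are related. Sparc was at 3248 (2996 to 3515) and 2750.0 (2599 to 2908) CPM in microglia, 2115 (2037 to 2194) and 2446 (2380.2 to 2513) CPM in endothelial cells, 1958 (1853 to 2068) and 1718 (1658 to 1779) CPM in pericytes, 2289 (1852 to 2798) and 2104 (1793 to 2455) CPM in fibroblasts and 803 (727 to 884) and 1349 (1226 to 1482) CPM in smooth muscle cells. Sparcl1 was at 3556 (3481 to 3632) and 4000.1 (3903 to 4099) CPM in astrocytes, 3967 (3797 to 4142) and 3515 (3314 to 3725) CPM in smooth muscle cells, 2085 (1977 to 2199) and 2102 (2036 to 2170.2) CPM in pericytes and 1455 (1391 to 1521) and 1481 (1429.8 to 1533) CPM in endothelial cells, and microglia had only 42.3 and 28.9 CPM. Neurons were low in both, with 5.81 and 4.13 CPM of Sparc and 93.8 and 82.3 CPM of Sparcl1, and oligodendrocytes had 24 and 33.7 CPM and 45.3 and 38.5 CPM.

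Within the astroglia the stem-like cells were higher in Sparc and lower in Sparcl1 than astrocytes. Sparc was at 1007 (909 to 1113) and 789 (658 to 938) CPM in stem-like astroglia and at 162 (147 to 179) and 199.5 (178 to 222) CPM in astrocytes, and in none of the 5 astrocyte clusters above 271 CPM. Sparcl1 was at 2357 (2206 to 2516) and 2125 (1907 to 2362) CPM in stem-like astroglia, below astrocytes as a whole, while the astrocyte clusters ranged from 1517 and 2152 CPM in that with the lowest Control level to 5049 and 5386 CPM in that with the highest. The intervals of stem-like astroglia and astrocytes did not overlap for either gene in either library. The astrocyte cluster lowest in Sparcl1 in Control was highest of the 5 in Lama2, at 229.6 and 189 CPM, and in Agrn, at 208 and 189 CPM. A median of 12.4% of the UMIs of its cells were mitochondrial, against 6.15% in the cluster highest in Sparcl1. The astrocyte cluster with the highest median mitochondrial share, 15.7%, had Sparcl1 at 4694 and 4491 CPM. Lama2 was there at 21.2 and 30.4 CPM and Agrn at 24.2 and 26.6 CPM.

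**Figure D4:**
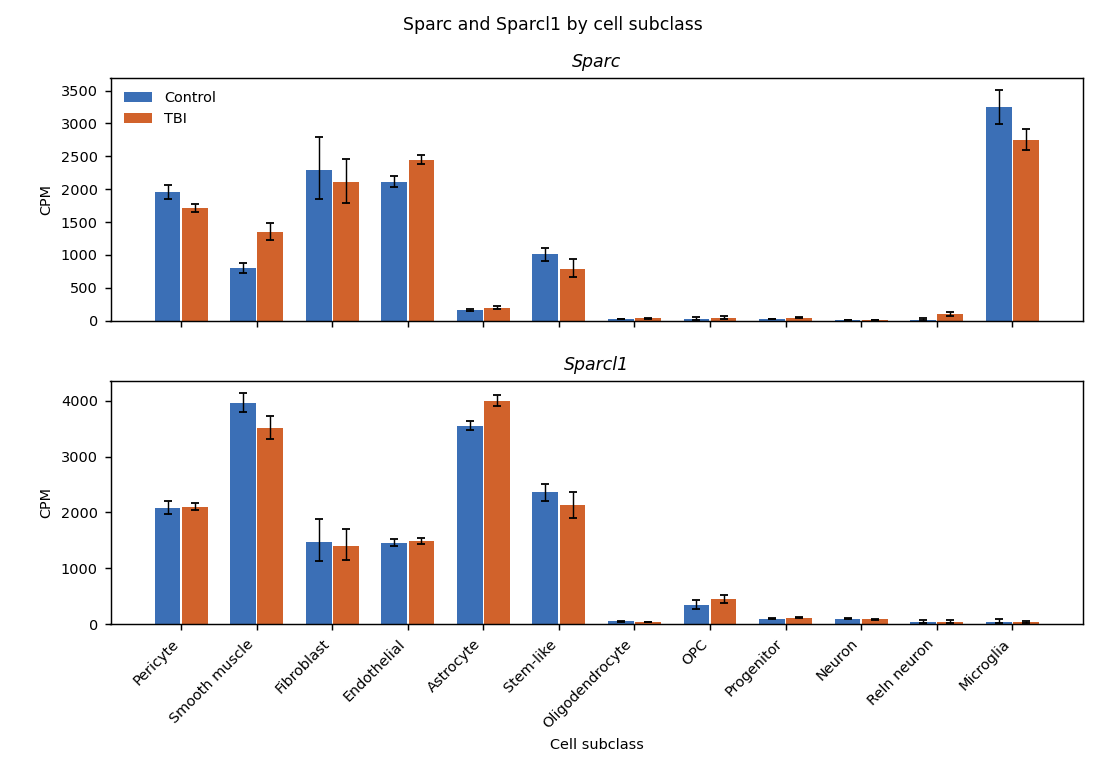
Levels in CPM of Sparc (top) and Sparcl1 (bottom) in the 12 cell subclasses, as bars for Control (blue) and TBI (orange) with exact 95% Poisson intervals. Sparc is high in microglia and vascular cells and, among astroglia, in the stem-like cells, whereas Sparcl1 is high in astrocytes and vascular cells and low in microglia.

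Among cells with at least 2000 UMIs, shares of cells gave a similar picture. Each cell was thinned to 2000 UMIs, which left 2697 Control and 4295 TBI cells. Exact 95% binomial intervals follow the shares. Astrocyte clusters with median depths of 1781 and 1652 UMIs lost most of their cells here. Fn1 was detected in 68.1% (62 to 73.8) of Control and 66.5% (62.3 to 70.4) of TBI cells of the endothelial class against 0% and 0.565% of the oligodendrocyte class (median depths before thinning 4799.5 and 3709 UMIs in endothelial cells, 10112 and 8190.0 in the oligodendrocyte class). Nid1 was detected in 68.7% (61.4 to 75.4) of Control and 69.6% (65.6 to 73.5) of TBI cells of the pericytes, 12.5% and 22.6% of smooth muscle cells and 0.174% and 0.282% of the oligodendrocyte class, and Col4a1 in 61.5% (53.9 to 68.6) of Control and 65.5% (61.3 to 69.4) of TBI cells, with 0.348% and 0.565% in oligodendrocytes. Sparcl1 was found in 93.1% (90.7 to 95.1) of Control and 95.3% (92.7 to 97.2) of TBI cells among astrocytes and in 5.57% and 7.25% of oligodendrocytes, and Sparc in 71.4% and 71% of stem-like astroglia, 19.2% and 23.6% of astrocytes and 5.04% and 5.37% of oligodendrocytes. Lama2 was found in 20.5% and 19.4% of astroglia, 10.3% and 8.95% of neuronal lineage cells, 4.17% and 3.67% of the oligodendrocyte class and 1.2% and 0.368% of endothelial cells. The part of free RNA in these shares was not tested. Unthinned shares were higher for Lama2 in the neuronal lineage, at 39.9% and 33.9%, and for Nid1 in pericytes, at 78.8% and 80.2%.

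The comparison of TBI with Control asked whether injury went with another level of these genes in each type of cell. In most members and cells the difference was small. In pericytes 23 members had 50 or more UMIs, and 1 was at least 1.5-fold higher (Col27a1) and 1 at least 1.5-fold lower (Col3a1) in TBI, where 5.69% and 3.98% of all 7165 genes were. Col27a1 was at 71.2 CPM (52.3 to 94.7) in Control and 109 CPM (94.3 to 125) in TBI, a log2 ratio of 0.61 (0.15 to 1.11), with the exact 95% conditional interval in parentheses. Col3a1 was at 167 CPM (137 to 201) in Control and 85.2 CPM (72.3 to 99.8) in TBI, a log2 ratio of -0.97 (-1.33 to -0.60). A few cells held much of this RNA, since the 5% of pericytes with most Col3a1 UMIs carried 60.9% of them in Control and 53.9% in TBI. The main type IV and laminin genes of pericytes were closer, at a log2 ratio of 0.15 (-0.01 to 0.30) for Col4a1, 0.04 (-0.16 to 0.25) for Col4a2, -0.03 (-0.20 to 0.14) for Lamc1, 0.05 (-0.11 to 0.21) for Nid1 and -0.10 (-0.34 to 0.14) for Lama2. The median over the 23 members was 0.01, beside -0.01 over all genes.

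One pericyte cluster was rich in immediate early genes, the genes that cells switch on within minutes of a stimulus such as dissociation. It held 45 Control and 259 TBI cells, and 8 such genes summed to 25493 and 31675 CPM in it against 375 and 1084 CPM in the largest pericyte cluster. In that cluster Col3a1 was at 397 and 93.9 CPM, against 81.3 and 88.2 CPM in the largest cluster, and Sparc at 2636 and 2038 CPM against 1727 and 1571 CPM. Without it, 22 members of pericytes could be compared, 2 were higher (Col27a1 and Col8a1; background 6.09%) and 1 lower (Col4a4; background 3.21%), and the log2 ratio of Col3a1 was -0.09 (-0.67 to 0.50). In the whole mural class without that cluster 9 of 30 members were higher and 1 lower (backgrounds 10.6% and 5.39%). The larger smooth muscle cluster stayed in the class, and there the 8 genes summed to 17136 and 15714 CPM. The part of the pericyte cluster rich in these genes in the pericyte values as a whole was not tested.

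Smooth muscle cells showed more members past 1.5-fold, on 65 and 62 cells. Of 13 members, 5 were higher in TBI (Sparc, Lamc1, Lamc3, Nid1 and Agrn; 13.4% of all 3020 genes) and 1 was lower (Col18a1; 6.29%). Sparc was at 803 CPM (727 to 884) in Control and 1349 CPM (1226 to 1482) in TBI, a log2 ratio of 0.75 (0.55 to 0.95). Lamc3 was at 52.1 CPM (34.3 to 75.8) in Control and 154 CPM (114 to 203) in TBI, a log2 ratio of 1.56 (0.86 to 2.3), and Agrn at 59.8 and 136 CPM, a log2 ratio of 1.18 (0.48 to 1.89). Lamc1 had a log2 ratio of 0.75 (0.28 to 1.22) and Nid1 one of 0.73 (0.16 to 1.30). Smooth muscle cells came from 2 clusters, of 51 Control and 40 TBI cells and of 14 and 22 cells. In the larger one Nid1 was at 79.98 and 73.1 CPM, not higher in TBI, and Sparc at 678 and 1142 CPM. Lamc1 was there at 142 and 236 CPM, Lamc3 at 35.5 and 97.5 CPM and Agrn at 57.8 and 93.4 CPM. In the smaller one Nid1 was at 249 and 471 CPM and Sparc at 1629 and 2000.1 CPM. Col18a1 was at 137 CPM (107 to 173) in Control and 70.8 CPM (44.9 to 106) in TBI, a log2 ratio of -0.95 (-1.70 to -0.26). The 8 pericyte markers summed to 4339 CPM in Control and 12000.5 CPM in TBI smooth muscle cells. The 8 smooth muscle markers summed to 44810.3 and 31479.9 CPM. All 5 higher genes had a higher level in pericytes than in smooth muscle cells in both libraries. The part of pericyte RNA in these ratios was not tested.

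As 1 class, mural cells gave 8 higher members of 32 (Col4a3, Col15a1, Col27a1, Col13a1, Nid2, Col5a3, Col7a1 and Lamb1; 9.45% of all 8265 genes) and 2 lower (Lama5 and Col18a1; 6.15%), with a median log2 ratio of 0.30 over the members and 0.11 over all genes. The log2 ratios of the higher members were 0.98 (0.47 to 1.53) for Col4a3, 0.96 (0.54 to 1.40) for Col27a1, 0.88 (-0.08 to 1.95) for Nid2, 0.71 (0.23 to 1.21) for Col5a3 and 0.76 (0.42 to 1.12) for Lamb1. For the fibroblast collagens Col15a1, Col13a1 and Col7a1 they were 0.66 (-0.08 to 1.45), 0.63 (-0.25 to 1.59) and 0.66 (-0.21 to 1.62), from 13 and 19 fibroblasts, and for Col18a1 -1.44 (-1.91 to -0.98). Smooth muscle cells were 65 of 281 mural cells in Control and 62 of 706 in TBI, and were the deepest of them. Without smooth muscle cells 2 of 30 members were higher and 3 lower (backgrounds 6.06% and 4.35%), and the log2 ratio of Lama5 went from -0.88 (-1.41 to -0.35) to 0.48 (-1.17 to 2.53). Scaled by TMM, which lowered all mural ratios by 0.1048 on the log2 scale, 5 members were higher and 2 lower, and 6.06% and 8.11% of all genes. With the mean of single-cell CPM 3 were higher and 3 lower, and 6.87% and 6.55% of all genes.

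**Figure D5:**
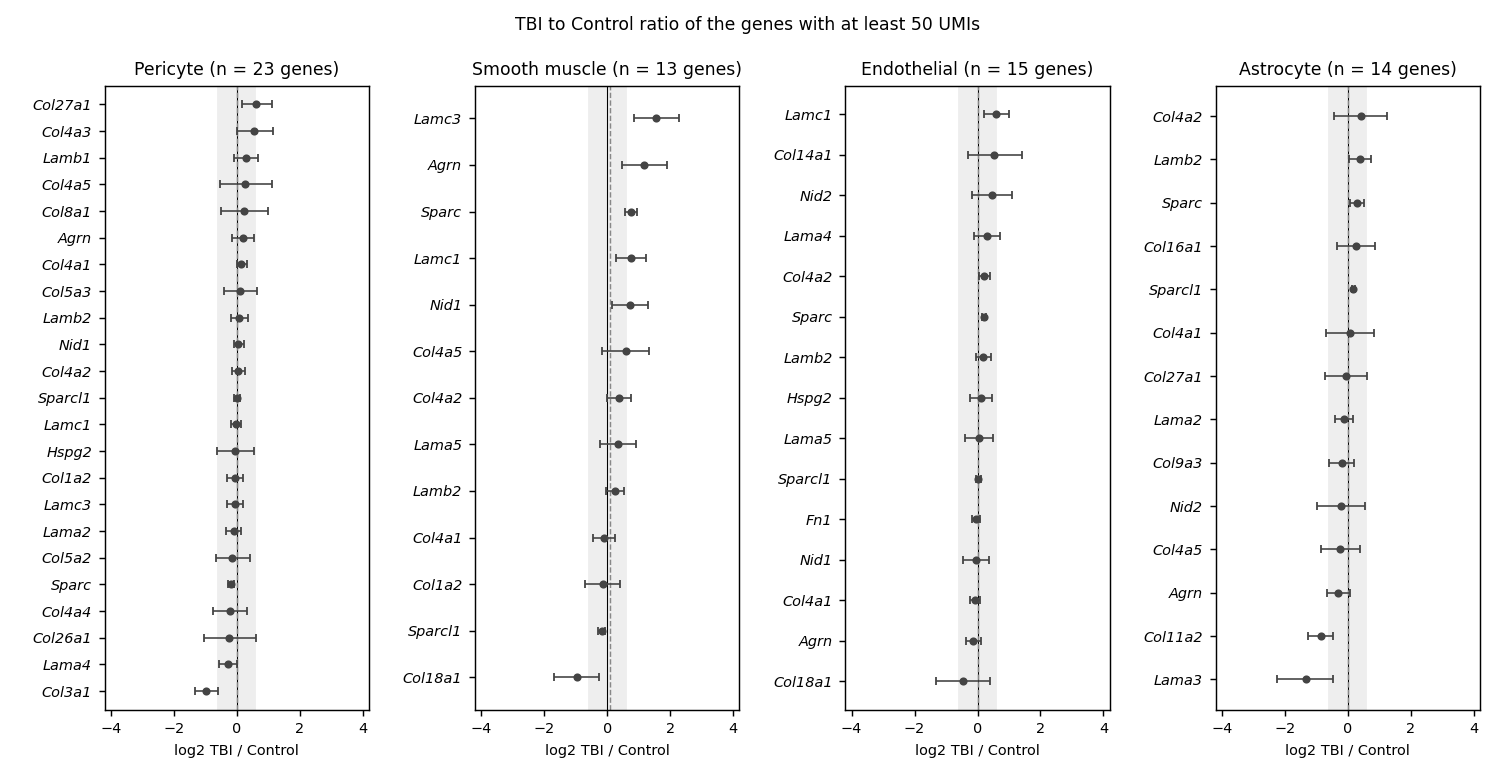
Log2 ratio of TBI to Control of each member with at least 50 UMIs over both libraries in pericytes, smooth muscle cells, endothelial cells and astrocytes, with exact 95% conditional intervals as bars, the range within 1.5-fold in grey and the median of all genes as a dashed line. Most points lie in the grey range, and those outside are Col27a1 and Col3a1 in pericytes, 6 genes in smooth muscle cells, Lamc1 in endothelial cells, and Col11a2 and Lama3 in astrocytes.

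Endothelial cells had 15 members to compare. Lamc1 was higher, at 58.5 CPM (46.3 to 73.1) in Control and 88.7 CPM (76.5 to 102) in TBI, a log2 ratio of 0.60 (0.21 to 1.00), and none was lower (backgrounds 3.09% and 2.54%). This ratio lay at the limit of 1.5-fold, and no member passed with doublets removed or with TMM scaling. In the cluster led by Gkn3 and Edn1 Lamc1 was at 61.1 (39.5 to 90.2) and 125 (101 to 153) CPM. In both other clusters it was closer, at 62.0 and 71.0 CPM and at 54.9 and 66.5 CPM, with overlapping intervals. Fn1, the member enriched in endothelial cells, had a log2 ratio of -0.05 (-0.17 to 0.06). Members shared with other classes had log2 ratios of -0.09 (-0.25 to 0.06) for Col4a1, -0.13 (-0.36 to 0.11) for Agrn, 0.21 (0.14 to 0.28) for Sparc and 0.03 (-0.06 to 0.11) for Sparcl1. The 8 pericyte markers summed to 526 CPM in Control and 918 CPM in TBI endothelial cells. The part of pericyte RNA in the ratio of Lamc1, which pericytes hold at the levels given above, was not tested.

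In the astroglial class 0 of 15 members were higher (background 1.75%) and 2 lower, Col11a2 and Lama3 (background 3.22%). In astrocytes alone 0 of 14 were higher and the same 2 lower (2.17% and 3.59%). Col11a2, which encodes a fibrillar chain known from cartilage, was at 82.3 CPM (71.3 to 94.6) in Control and 45.6 CPM (35.8 to 57.2) in TBI in astrocytes, a log2 ratio of -0.85 (-1.26 to -0.46). Lama3 was at 23.2 and 9.24 CPM from 56 and 15 UMIs, a log2 ratio of -1.33 (-2.26 to -0.48). In Control both had their highest level of the astrocyte clusters in the one described above as lowest in Sparcl1 in Control. It held 191 Control and 115 TBI cells, and there Col11a2 was at 191 and 67.7 CPM and Lama3 at 64.4 and 9.67 CPM. In the astrocyte cluster with the highest median mitochondrial share Col11a2 was at 30.3 and 30.4 CPM and Lama3 at 12.1 and 0 CPM. In the largest TBI astrocyte cluster (160 Control and 198 TBI cells) Col11a2 was at 76.3 and 49.8 CPM and Lama3 at 20.1 and 14.2 CPM. Without cells of over 10% mitochondrial UMIs neither remained past 1.5-fold, and Lama3 then had a log2 ratio of 0.19. That choice left 335 Control and 353 TBI astroglial cells, and 10 members of the class then had 50 or more UMIs. Sparcl1 in astrocytes had a log2 ratio of 0.17 (0.12 to 0.22), Sparc one of 0.30 (0.08 to 0.52) and Lama2 one of -0.12 (-0.41 to 0.16).

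Oligodendrocytes and neuronal lineage cells held low levels of most of these genes. In the oligodendrocyte class 1 of 10 members was higher, Col4a1 at 2.04 and 4.65 CPM from 12 and 42 UMIs (log2 ratio 1.19 (0.24 to 2.25), background 3.29%), and 0 were lower (1.67%). The 8 endothelial markers summed to 35.2 CPM in Control and 107 CPM in TBI there. With doublets and OPC left out they summed to 11.9 and 18.8 CPM. Col4a1 then had 5 and 15 UMIs, under the minimum, with a log2 ratio of 1.00 (-0.53 to 2.81). Of 9 members 0 were then higher and 1 lower, Sparcl1 (backgrounds 1.41% and 2.25%). The part of endothelial RNA in the ratio of Col4a1 was not tested. Without the oligodendrocyte cluster with the highest share of TBI cells (30 Control and 204 TBI cells) 0 of 9 were higher and 0 lower (3.35% and 1.55%). Of 19 members in the neuronal lineage 3 were higher and 0 lower (2.67% and 2.9%). Sparc was at 14.7 CPM (12.6 to 17.1) in Control and 24.6 CPM (22 to 27.3) in TBI, a log2 ratio of 0.74 (0.47 to 1.02). Hspg2 was at 1.47 and 3.19 CPM, a log2 ratio of 1.12 (0.28 to 2.02), and Fn1 at 3.03 and 4.57 CPM, a log2 ratio of 0.59 (-0.02 to 1.23). Without doublets 1 of the 3, Hspg2, remained past 1.5-fold, the log2 ratio of Sparc was 0.33 and the log2 ratio of Fn1 was -0.047, and with cells thinned to 2000 UMIs that of Hspg2 was -0.70. Pericyte markers summed to 12.5 and 99.7 CPM and endothelial markers to 26.4 and 69.8 CPM in the same cells. Their part in these values was not tested. Without Reln neurons 2 of 19 members, Hspg2 and Sparc, were higher and 0 lower (2.51% and 3.01%), and the log2 ratio of Sparc was 0.61 (0.33 to 0.89). In OPC, 27 and 55 cells, Col9a3 was at 439 CPM (353 to 538) in Control and 228 CPM (181 to 282) in TBI, a log2 ratio of -0.94 (-1.39 to -0.50).

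Other genes of the matrix were compared in lists of 27 genes for collagen assembly and crosslinking, 21 receptors, 18 proteases and inhibitors, and 26 other matrix proteins. In pericytes 4 of 10 proteases and inhibitors were lower (background as above for pericytes, 3.98%). The lists were chosen with earlier results of these data known, so this count is a description only. These genes were not compared without the pericyte cluster rich in immediate early genes, which held 45 Control and 259 TBI cells. Timp3, an inhibitor of matrix proteases held in the matrix, was at 405 and 236 CPM in Control and TBI pericytes, a log2 ratio of -0.78 (-1.0 to -0.55). Adamts1 and Adamts4, which cleave proteoglycans, had log2 ratios of -0.62 (-0.92 to -0.31) and -1.20 (-1.87 to -0.52), and Timp2 one of -1.19 (-1.93 to -0.44). The assembly genes had 1 of 17 higher (P3h1) and 1 lower (Loxl2), the receptors 0 of 12 in either direction, and the other matrix proteins 1 of 11 higher (Spock2) and 1 lower (Tgfbi). Serpinh1, the chaperone of collagen folding, was at 564 and 577 CPM and Itga1, a collagen receptor chain, at 1791 and 1627 CPM.

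In the mural class as a whole, 3 of 19 assembly genes (P3h1 higher, P4ha2 and Tgm2 lower), 0 of 13 receptors, 8 of 11 proteases and inhibitors (among them Mmp11 and Mmp15 higher, Adamts1, Adamts4, Adamts5, Timp2 and Timp3 lower) and 6 of 16 other proteins (Mfap2 and Spock2 higher, Eln, Ntn4, Npnt and Thbs1 lower) were past 1.5-fold (9.45% of all genes higher and 6.15% lower), with the smaller share of smooth muscle cells in TBI beside it. Elastin (Eln), a protein of arterial walls, had a log2 ratio of -2.77 (-3.54 to -2.06) there. Endothelial cells had 6 of 35 genes past 1.5-fold over the 4 lists (3.09% of all genes higher and 2.54% lower), among them Vtn, a pericyte marker, at 38.3 and 284 CPM. Spock2, a proteoglycan gene of endothelial cells, was at 3132 and 3006 CPM and did not pass. Of 44 genes in astroglia 6 passed (1.75% and 3.22% of all genes), with Plod2, Mmp15, Mmp16, Adamts1 and Thbs4 lower and Vtn higher. Of 35 in oligodendrocytes 4 passed (Serpine2, Vtn, Mfap4 and Spock2, all higher, against 3.29% of all genes). Of 57 in the neuronal lineage 8 passed (2.67% of all genes higher and 2.9% lower), among them Vtn at 3.29 and 43.3 CPM and Itga1 at 1.56 and 5.87 CPM.

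Genes outside the list with the most similar pattern over the 24 profiles were sought among 5045 genes. Those nearest to Col4a1 were Itga1 (Pearson correlation 0.918), Rhoj (0.913), Kank2 (0.900), Foxc1 (0.897) and Tgfbr3 (0.897). Nearest to Col1a1 were Gjb2 (0.944), Adamts12 (0.931), Slc13a4 (0.922), Aox3 (0.919) and Aldh1a2 (0.909). For Sparc they were Cyba (0.933), Hes1 (0.913), Ifitm3 (0.912), Stard8 (0.903) and Tgfbr2 (0.901), and for Sparcl1 Emp2 (0.944), Etfb (0.903), Efemp2 (0.901), Timp3 (0.895) and Dag1 (0.891). The correlations are descriptions over profiles that share 2 libraries.

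The remaining 32 members did not reach 100 CPM in any subclass of both libraries. They include Col4a3, Col4a4, Nid2, Hspg2, Lama3, Col27a1, Col11a1 and Col11a2, described above for other reasons. Col5a3, a minor fibrillar chain, was at 65.2 and 69.7 CPM in pericytes. Col8a1 was at 31.8 and 37.1 CPM in pericytes and 36.7 and 37 CPM in smooth muscle cells. Col14a1 was at 13.5 and 19.5 CPM in endothelial cells and Col7a1 at 96.4 and 169 CPM in fibroblasts. Col16a1 was at 23.2 and 27.7 CPM in astrocytes and at 64.95 CPM or more in fibroblasts of both libraries. Of the 32, 17 had fewer than 50 UMIs in the 5 classes together, and Col6a4 and Col10a1 had 0 in all cells.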

How the data were processed

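GFP-positive dentate gyrus cells of 1 Control and 1 TBI library were measured by droplet single-cell RNA sequencing. The deposited values are counts of UMIs per gene and cell, which the authors made with Cell Ranger 3.0.2 on GRCm38 and filtered to cells. The labels do not give the condition of each table, and it was taken from cell barcodes that the study lists by condition (356 of 356 and 320 of 320 were found in their own table only). The 62 genes, the marker lists and the matrix gene lists were chosen with earlier results of these data known.

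Cells with at least 200 genes and within 3 median absolute deviations were integrated in Seurat 5.3.0 (R 4.3.3) with 20 dimensions, 2000 variable genes without Malat1 and the members, 20 principal components and resolution 3.0. Each of the 41 clusters took the name of the marker list with the highest average z-scored expression in it, and 4 stayed unnamed. Scrublet in scanpy 1.11.5 marked 38 Control and 109 TBI doublets, which were kept except where stated. UMIs were summed per class and library and divided by their total without Malat1. Ratios have exact conditional binomial intervals computed in scipy 1.17.1, and the calculation was tested on simulated data. A member counted as different at 1.5-fold with 50 UMIs over both libraries. Members at 100 CPM or more in a subclass of both libraries and those past 1.5-fold in a class are named, from the matrix lists mainly those past 1.5-fold with some of the highest, and for 4 members the 5 genes most like them. Other members were named after their values were seen. Leaving out smooth muscle cells, Reln neurons, doublets with OPC, the pericyte cluster rich in immediate early genes or the oligodendrocyte cluster with the highest share of TBI cells was chosen after seeing the data. TMM factors of edgeR 4.0.16 and size factors of DESeq2 1.42.0 served as alternative scalings only. PCR copies were collapsed by UMI, and all intervals cover counting error only. Depth per library and class is given with the results. Single samples could not be separated within a library and were not analysed here. Results of some genes are not reported here.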

Additional observations from a re-analysis of the deposited data

Results flagged for a closer look

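The 4 unnamed clusters enter none of the comparisons, and among the members with at least 50 UMIs in them 6 had a TBI interval wholly above the Control interval. Their levels in the 136 Control and 163 TBI cells were 119.8 and 271 CPM for Fn1, 28.9 and 146 CPM for Lamc1, 70.2 and 197 CPM for Col4a1, 49.6 and 194 CPM for Col4a2, 442 and 1025 CPM for Sparc and 591 and 882 CPM for Sparcl1, Control first. Lama2 was lower in TBI, at 182 (132 to 244) and 77.5 (50.6 to 114) CPM. Agrn and Lamb2 also had at least 50 UMIs there, with overlapping intervals. The share of all genes with such intervals was not computed in these mixed cells, so the 6 do not set the members apart. The make-up of the unnamed cells differed between the libraries. A cluster rich in hemoglobin RNA and nearest to endothelial cells held 32 Control and 87 TBI cells, and one nearest to astroglia 78 and 46. A cluster of 2 and 13 cells, all called doublets and led by pericyte genes, held 33 of the 49 TBI UMIs of Lamc1 and 96 of the 344 of Sparc. In the endothelial-nearest cluster Fn1 was at 839 and 814 CPM and Sparc at 2260.0 and 2194 CPM. Lamc1 had 1 and 15 UMIs there. The part of this make-up in the 6 values was not tested.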

How the results depend on the processing

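Of 1000 alternative values over the ratios of single members, 925 lay within the main interval and 71 outside it with the same sign. In 4 the sign changed, to 0.19 for Lama3 in astroglia without cells of over 10% mitochondrial UMIs, -0.047 for Fn1 in the neuronal lineage without doublets, -0.70 for Hspg2 in the neuronal lineage with cells thinned to 2000 UMIs, and 0.48 for Lama5 in mural cells without smooth muscle. The cause was not tested. The counts of members past 1.5-fold (mural 10, endothelial 1, astroglial 2, oligodendrocyte 1, neuronal lineage 3) moved as follows. Without a filter on RNA content the endothelial count was 0 and the oligodendrocyte count 3 of 12 (3.83% of all genes higher and 1.67% lower). Without cells of over 10% mitochondrial UMIs the mural count was 5 of 32 (7.25% and 5.56%). The endothelial and astroglial counts were then 0 and the oligodendrocyte count 3 of 10 (4.18% and 1.53%). Without doublets the endothelial and oligodendrocyte counts were 0 and the neuronal count 1 of 19 (2.33% and 2.83%). The oligodendrocyte count was 0 without integration and 0 without the cluster with the highest share of TBI cells. It was 4 of 13 with unnamed clusters added (4.09% and 1.56%). The endothelial count was 0 without mitochondrial and hemoglobin UMIs in the total, with TMM and with size factors. The mean of single-cell CPM gave 6 of 32 mural (6.87% and 6.55% of all genes) and 1 of 19 neuronal members (3.7% and 3.44%). It gave 1 of 15 endothelial members (3.57% and 2.95%), the lower Col18a1 (log2 ratio -0.70) in place of the higher Lamc1 (0.29). With it 2 members were enriched in endothelial cells. Thinned cells gave 4 mural members and 0 endothelial, astroglial and neuronal members. With a minimum of 20 UMIs, 8 of 38 mural members were higher and 5 lower (12.2% and 8.5% of all genes). The counts were 4 of 18 endothelial (6.13% and 4.83%) and 5 of 21 astroglial members (3.79% and 5.97%). They were 4 of 18 oligodendrocyte (6.26% and 3.47%) and 6 of 24 neuronal members (4.89% and 4.17%). With 1 UMI in each library they were 18 of 47 mural (15.4% and 15.1%) and 11 of 29 endothelial members (10.7% and 13.5%). There were also 14 of 37 astroglial (12.5% and 9.86%), 21 of 38 oligodendrocyte (10.7% and 11.1%) and 23 of 46 neuronal members (10.5% and 8.39%). At 2-fold 1 mural, 0 endothelial, 1 astroglial and 1 neuronal member passed, and Col4a1 passed in the oligodendrocyte class. Of the other matrix genes 11 mural, 2 endothelial, 4 astroglial, 1 oligodendrocyte and 3 neuronal passed. No share of all genes is given for the thinned counts, the 2-fold counts or the 2 members enriched in endothelial cells. Those counts therefore do not set the members apart. Mural cells without smooth muscle gave 5 members. Thinned to 1000 UMIs, the shares in Control and TBI were 40.6% and 44.0% for Col4a1 and 33.2% and 43.9% for Nid1 in mural cells, 48.8% and 45% for Fn1 and 79.6% and 83.6% for Sparc in endothelial cells, and 83.0% and 84.7% for Sparcl1 and 8.98% and 8.26% for Lama2 in astroglia.

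No paired analysis was possible because the animals of a condition were pooled into 1 library, so replicate numbers could not be followed. With 1 library per condition, differences between animals, libraries and conditions cannot be told apart. Fibroblasts, smooth muscle cells and stem-like astroglia rest on few cells, and members below 50 UMIs were not compared.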

Other observations

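Microglia lie outside the 5 classes compared and came from 2 clusters. The smaller (17 Control and 27 TBI cells) was led by Ccl5, Lyz2, Tyrobp, Cd52 and Gzma, the larger by Cx3cr1, Ccl4 and C1qa. The levels were not split between these clusters, so the group may be mixed. Together the 38 Control and 89 TBI cells held Sparc at 3248 and 2750.0 CPM and Col27a1 at 95.1 and 134 CPM. Col4a1 was there at 0 and 2.23 CPM and Sparcl1 at 42.3 and 28.9 CPM. In progenitors Sparc was at 23.8 and 45.8 CPM and Lamb1 at 5.18 and 10.1 CPM, with log2 ratios of 0.95 (0.64 to 1.26) and 0.96 (0.29 to 1.65). The pericyte markers in those progenitors summed to 12.1 and 176 CPM, and their part in the ratios was not tested.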
